A study of Harpegnathos saltator with 47 samples.

Results

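In the deposited RPKM values, the 100 genes described here were low or absent in most brains of the ant Harpegnathos saltator. They stood high in 1 to 4 of 33 ants. They were selected on their measured RPKM values, which scale reads by gene length and by the reads in genes of each library. A gene had to have a median under 0.5 RPKM over the 33 ants and to reach 2 RPKM or more in 1 to 4 of them. Of 18429 genes, 904 met these limits, and the 100 with the highest maximum were kept. A value of 2 RPKM or more in 1 of these genes is called a peak below. Because the peaks chose the genes, their number and size are given as a description with no test.

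PolyA RNA from brains dissected free of the optic lobes was sequenced with its strand kept, and the deposited values have 1 column per ant. In this species a colony that loses its reproductive sees its workers duel, and some of the winners mate, lay eggs and are then called gamergates. The 12 gamergates and 11 transition workers, ants that did not become gamergates, came from nests set up with 30 young females and 3 males and were taken at day 120. The 10 stable workers came from stable colonies and also carry the label day 120. All 33 ants are unmodified ants of the same species, and the labels do not say which of them shared a nest. Replicates are thus single ants, and a p-value reflects only how much these samples vary.

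Run dates in the library names give 3 sequencing batches. The first, batch A, comprised gamergates 1 and 2 and transition workers 1 and 2, without any stable worker. From each of the 3 groups, 5 ants were sequenced in batch B. The other 14 ants, among them 4 transition workers, made up batch C. Whole reads were recovered from the steps of the RPKM values, which put 3904954 to 11159716 reads in genes per ant. Library names also begin with b, H or ND, of unstated meaning, and b stood on 11 of the 12 gamergates but on 3 of the 11 transition workers and 0 of the 10 stable workers. H stood on 1 gamergate, 6 transition workers and 7 stable workers. Whatever the prefixes stand for can therefore hardly be told apart from the difference between gamergates and stable workers. It is partly mixed with the difference between gamergates and transition workers, and less with that between transition and stable workers. In a whole brain, fewer cells of a type and less RNA per cell cannot be told apart. The genes carry only Hsal_ identifiers here. None of them is paired with a name in the sources used, so no function is given and the brain label was not checked against cell type markers.

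RPKM divides reads by gene length, so 1 read in a short gene is worth much more than 1 read in a long one. The 100 genes included many short ones. Their median length was 239 bases, against 1180 bases over the 15857 genes with a read and 297.5 bases over the other 804 genes that met the limits. Of the 100 genes, 55 were shorter than 300 bases, a length class that held 12.3% of all genes with a read.

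The maximum of 51 genes rested on fewer than 10 reads. These few-read genes were 52 to 282 bases long, with a median of 146 bases, and had a median of 5 reads at their maximum. At 146 bases, 1 read was worth 1.75 RPKM in the shallowest library and 0.614 RPKM in the deepest. Hsal_15226 had its maximum of 13.0 RPKM in transition worker 1 from 3 reads over 52 bases, with an exact Poisson 95% interval of 2.68 to 37.9 RPKM. Hsal_05765 had 15.1 RPKM in transition worker 10 from 6 reads over 80 bases, with an interval of 5.56 to 33 RPKM. Such intervals cover counting error only. For these 51 genes the reads do not tell a gene switched on from a gene with a few reads, so the 100 genes are called rare-peak genes here.

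The other 49 genes had 10 reads or more at their maximum, with a median of 47 reads and a median length of 1034 bases. At that length, 1 read was worth 0.248 RPKM in the shallowest library. Of these genes 24 had 50 reads or more. The highest was Hsal_04753, with 157 RPKM from 2459 reads in transition worker 9 and an interval of 151 to 163 RPKM. Over all 100 genes, maxima ran from 5.05 to 157 RPKM with a median of 6.60 RPKM.

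**Figure D1:**
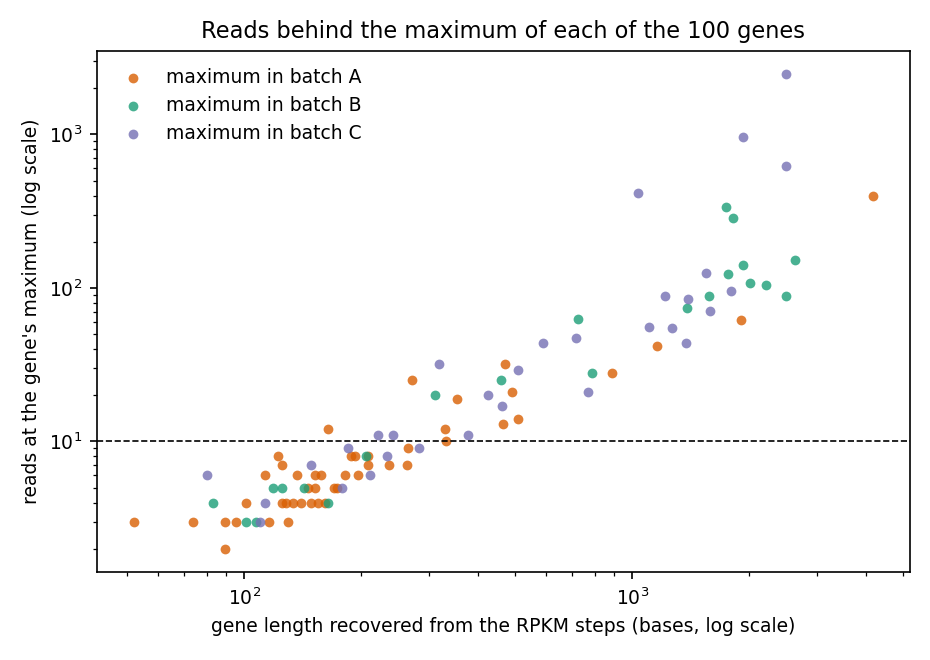
Each point is 1 of the 100 genes, with its length in bases on the x axis and the reads behind its maximum on the y axis, both on log scales, coloured by the batch of the ant with the maximum. The dashed line marks 10 reads: 51 genes lie below it, all of them shorter than 300 bases, and the 49 genes on or above it reach 2459 reads.

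Most of these genes also had reads in ants without a peak. A gene had at least 1 read in a median of 13.5 ants, with a range of 2 to 33, and 61 genes had a median of 0 RPKM. In 17 genes at least 50% of all reads came from 1 ant. Hsal_16874, which is 4169 bases long, was among the clearest cases of presence in few ants, with reads in 7 ants and none in 26. It had 16.5 RPKM in gamergate 2, 8.52 in transition worker 1, 5.38 in transition worker 9 and 2.91 in gamergate 8. The next value, 2.00 RPKM in gamergate 7, was just under the limit for a peak (1.997 before rounding). The ants in which it was highest thus came from all 3 batches, and in stable workers it did not exceed 0.127 RPKM.

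The 100 genes had 259 peaks in all. A single peak was found in 17 genes, 2 peaks in 30, 3 peaks in 30 and 4 peaks in 23. Of the 259 peaks, 134 belonged to few-read genes, 70 rested on 1 to 3 reads and 4 on 1 read. Every ant had at least 1 peak, and 22 ants held the maximum of at least 1 gene.

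Transition workers held 137 peaks, 52.9% of the total, gamergates held 79 peaks and stable workers 43. The mean per ant was 12.5 ± 11.1 peaks in transition workers (SD, n = 11), 6.58 ± 7.80 in gamergates (SD, n = 12) and 4.30 ± 3.89 in stable workers (SD, n = 10). Gamergates ran from 1 to 26 peaks with a median of 3.5, transition workers from 1 to 32 with a median of 11, and stable workers from 1 to 12 with a median of 3. The groups overlapped over most of their range, and the differences between their means were smaller than the SD of transition workers. Without batch A the means were 8.44 ± 7.35 in transition workers (SD, n = 9) and 3.40 ± 2.01 in gamergates (SD, n = 10). Within batch B they were 6.4 ± 4.88 in transition workers, 3.2 ± 2.17 in gamergates and 3.2 ± 3.9 in stable workers (SD, n = 5 each). Within batch C they were 11 ± 9.83 in transition workers (SD, n = 4), 3.60 ± 2.07 in gamergates and 5.40 ± 3.97 in stable workers (SD, n = 5 each). Batch A held 22.5 ± 4.95 peaks in gamergates and 30.5 ± 2.12 in transition workers (SD, n = 2 each). By library prefix the means were 7.14 ± 7.46 for b (SD, n = 14), 6.79 ± 6.19 for H (SD, n = 14) and 12.8 ± 16.2 for ND (SD, n = 5, of which 2 in batch A).

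**Figure D2:**
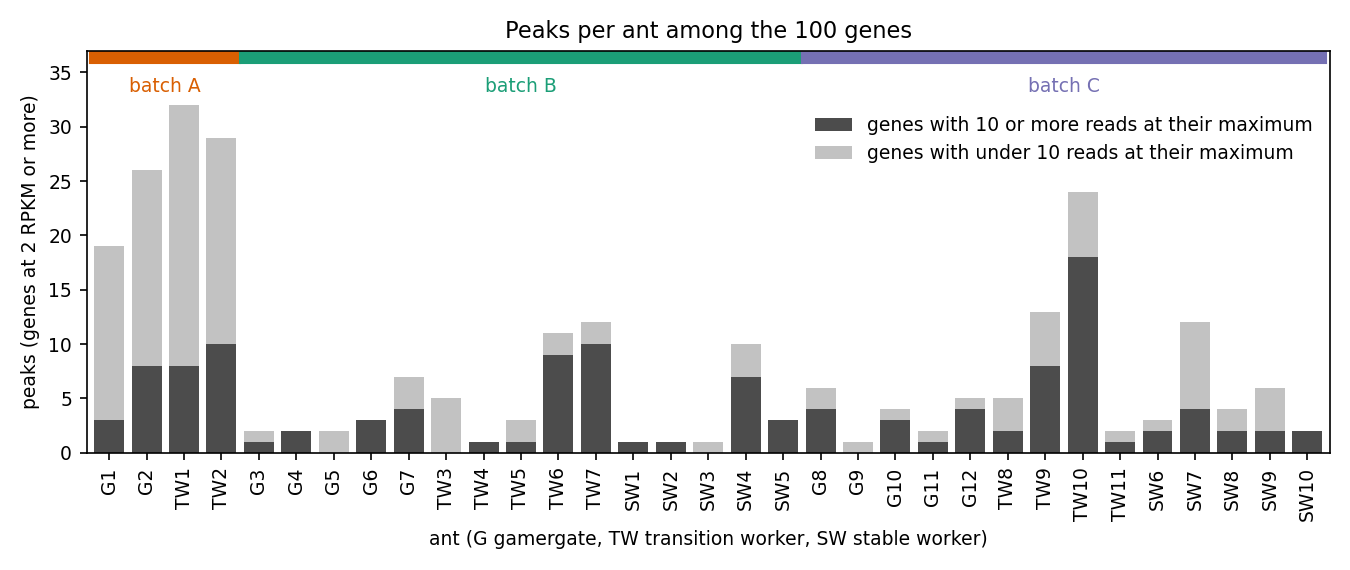
The y axis counts the peaks of each ant among the 100 genes, and the ants stand on the x axis by batch and group (G gamergate, TW transition worker, SW stable worker). Dark bars are peaks of the 49 genes with 10 or more reads at their maximum and light bars those of the 51 few-read genes: the 4 ants of batch A reach 19 to 32 peaks, mostly light, while transition worker 10 has 24, of which 18 are dark.

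Most genes with repeated peaks had them in more than 1 group, as peaks placed by chance over 3 groups of similar size mostly would. The counts to expect were not worked out, so nothing about the genes is read from those given next. Of 83 genes with 2 or more peaks, 67 peaked in more than 1 group, 12 in transition workers alone, 4 in gamergates alone and 0 in stable workers alone. Among the 41 of them with 10 or more reads, these counts were 34, 5, 2 and 0. The gamergate-only pair of that read class was Hsal_10784, with 6.5 RPKM in gamergate 6 and 3.3 in gamergate 4, and Hsal_01667, with 5.8 RPKM in gamergate 10 and 3.0 in gamergate 4. Both genes were singled out after their values were seen. Hsal_09682 was the only gene with 4 peaks in 1 group, in transition workers 2, 1, 5 and 8, but its maximum of 7.46 RPKM rested on 4 reads.

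Of the 100 genes, 75 had a mean of at least 0.5 RPKM and entered the test between groups, which was limma on log2(RPKM + 1) with batch as a term. Between gamergates and transition workers limma called 0 of the 75 genes at an adjusted p of 0.05, against 0.107% of all rows tested. The smallest adjusted p among them was 0.311 in limma, and 11 genes, or 14.7%, had an unadjusted p under 0.05, against 9.39% of all rows. Between transition and stable workers limma also called 0, against a background of 0.0089%, and 1 gene, or 1.33%, had an unadjusted p under 0.05, against 2.96% of all rows. Between gamergates and stable workers limma called 0, against 0.231%, and 3 genes, or 4.0%, had an unadjusted p under 0.05, against 7.56% of all rows. limma-voom on the recovered reads called 0 in each of these 3 comparisons too. Backgrounds this low would put less than 1 call among 75 genes, so these counts do not set the rare-peak genes apart. With medians under 0.5 RPKM, the 75 genes also passed the filter on the mean only through their higher ants. A gene high in at most 4 ants varies widely within its groups, which makes a call between groups unlikely.

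Another count came from the authors' deposited table, which sets transition workers against gamergates. It held an adjusted p for 48 of the 100 genes, and 4 of these, or 8.33%, were under 0.05, against 0.567% of 11983 genes with an adjusted p in the same table. The rule picked genes for high values in few ants, and transition workers held 52.9% of the peaks. Nothing about the genes is therefore read from this share. All 4 genes under 0.05 were higher in transition workers in the authors' deposited table. They were Hsal_10448 (log2 fold change of transition workers over gamergates 2.33, adjusted p 7.21e-05), Hsal_16441 (2.55, adjusted p 0.00455), Hsal_07499 (1.90, adjusted p 0.00855) and Hsal_11845 (1.98, adjusted p 0.0196). For Hsal_04753, the gene with the highest maximum, the authors' deposited table gave a log2 fold change of 3.77 and no p. The adjusted p was missing for 52.0% of the 100 genes and for 35.0% of all genes in that table.

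Hsal_16441 was 1 of these 4 genes, and its high RPKM values lay in few ants. The part of those ants in the authors' adjusted p was not tested. Among transition workers it ran from 0 to 80.8 RPKM with a median of 0.870, among gamergates from 0 to 7.03 with a median of 0.271, and among stable workers from 0.0877 to 1.71 with a median of 0.364. Its 4 peaks were 80.8 RPKM in transition worker 10, 11.7 in transition worker 9, 7.10 in transition worker 2 and 7.03 in gamergate 8. The remaining 29 ants were at or under 1.71 RPKM and the groups overlapped there.

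Batch A held 106 of the 259 peaks, or 40.9%, in 4 of 33 ants. The mean per ant was 26.5 ± 5.57 peaks in batch A (SD, n = 4), against 4.27 ± 3.86 for batch B (SD, n = 15) and 6.36 ± 6.2 in batch C (SD, n = 14). All 4 ants of batch A, with 19, 26, 32 and 29 peaks in gamergates 1 and 2 and transition workers 1 and 2, stood above every ant of batch B, and transition worker 10 was the only ant of batch C with more peaks than gamergate 1. The excess lay mostly in few-read genes, whose peaks numbered 19.3 ± 3.40 per ant in batch A, against 1.4 ± 1.5 in batch B and 2.57 ± 2.34 in batch C. In genes with 10 or more reads the means were 7.25 ± 2.99, 2.87 ± 3.27 and 3.79 ± 4.53. The limit of at most 4 ants equals the size of batch A, so the rule admits a gene that is high in the whole of batch A and leaves out one that is high in the whole of batch B or C.

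Mean depth was lower in batch A, and a lower depth raises the RPKM worth of a read. The ranges overlapped, with 4445777 to 6098366 reads in batch A, 3904954 to 11033434 in batch B and 4952620 to 11159716 in batch C. The shallowest library, transition worker 3 of batch B, had 5 peaks. Of the 100 genes, 58 to 62 had a read in an ant of batch A, against 27 to 50 for batch B and 39 to 60 for batch C. As 54 of the genes were chosen with a peak in batch A, nothing is read from that difference. Over all genes, and thinned to the lowest depth, the ants of batch A were expected to show 12072 to 12237 genes with a read and all other ants 11130 to 11936. The groups of values did not overlap. The share of reads in other genes under 300 bases was 0.414% to 0.439% in batch A, within the ranges of 0.393% to 0.552% for batch B and 0.374% to 1.38% for batch C. The part of these differences in the peaks was not tested.

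In limma, 26 of the 75 tested genes, or 34.7%, were called between batch A and batch B, all higher in batch A. The background was 22.1% of all rows in either direction and 11.8% higher in batch A. Nothing about the genes is read from this count, since the rule favours genes high in 4 ants and the comparison was added after the data were seen. Between batches C and B, which hold all 3 groups, limma called 10 of the 75 genes, or 13.3%, all higher in batch C. The background of this comparison was 35.5% in either direction and 19.1% higher in batch C, and the share of genes called was not above it. The direction depended on the fit, since limma-voom on the recovered reads called 7 genes, 4 higher and 3 lower in batch C. The differences of the 10 called genes were small, from 0.27 to 0.85 on the log2(RPKM + 1) scale. In limma, Hsal_00857 differed by 0.85 (SE 0.23, adjusted p = 0.00516) and Hsal_01431 by 0.77 (SE 0.15, adjusted p = 0.000152), the latter being 1 of 7 genes called in both batch comparisons.

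**Figure D3:**
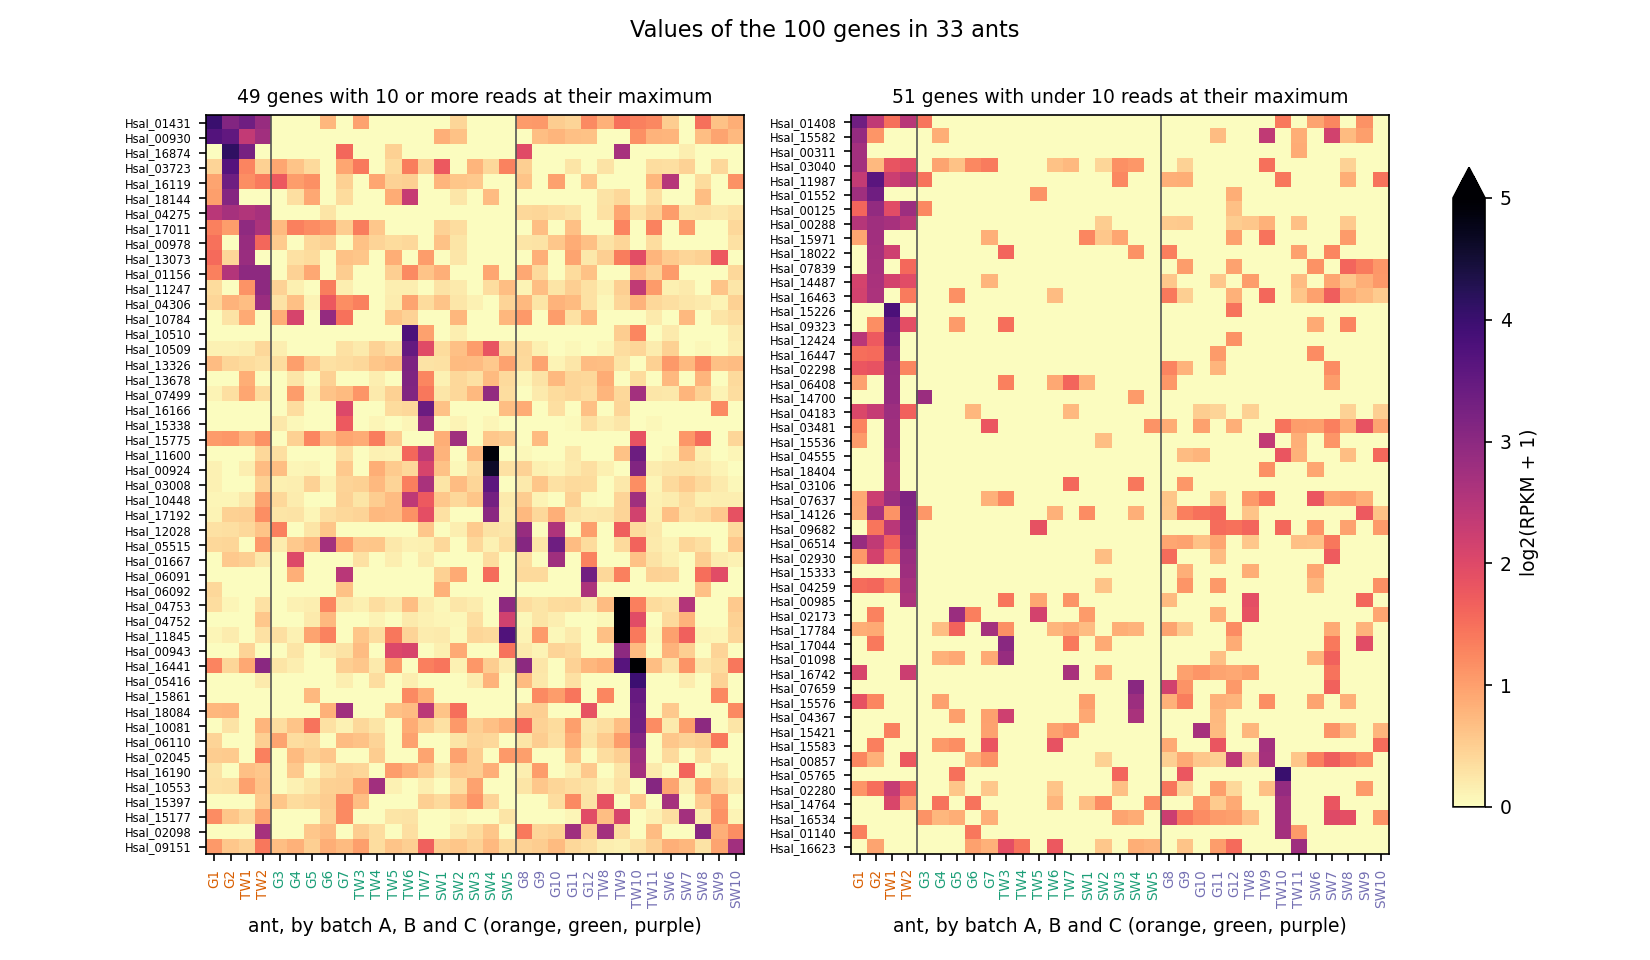
Rows are the 100 genes, ordered by the ant of their maximum, and columns are the 33 ants by batch (orange A, green B, purple C), with colour giving log2(RPKM + 1) up to 5 or more. The left panel holds the 49 genes with 10 or more reads at their maximum and the right panel the 51 few-read genes: the 4 columns of batch A hold most of the peaks of the right panel, and in the left panel blocks of shared peaks stand out in transition workers 6, 7, 9 and 10 and stable worker 4.

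Peaks were unevenly spread, from 1 to 32 per ant. Ants with many peaks make genes share a peak ant even if the genes are not linked. Of 4950 pairs of genes, 1594, or 32.2%, shared at least 1 peak ant, and 62 had identical peak ants. Among the 46 genes with no peak in batch A the share was 30.9% of 1035 pairs. The share to expect from the peaks per ant alone was not worked out, so no link between genes is read from these shares. The pairs of ants that shared most peaks were the 6 pairs within batch A, with 12 to 17 genes each. Outside batch A the highest numbers were 6 genes shared by stable worker 4 and transition worker 7, 6 by stable worker 7 and transition worker 9, 5 by stable worker 4 and transition worker 10, and 5 by transition workers 7 and 10. The 3 sets of genes described next were put together after these values were seen. High levels in the ants that define a set thus follow from its choice.

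The first set is the 9 genes that peaked in all 4 ants of batch A. Its summed level was 55.2, 60.9, 41.6 and 44.6 RPKM in gamergates 1 and 2 and transition workers 1 and 2, at most 3.10 RPKM in batch B and 2.38 to 4.92 RPKM in batch C. The set was chosen on peaks in these 4 ants, and the rule allows no further peak. That they were high and all other ants lower follows from the choice. Hsal_04275, at 887 bases the longest of the set, had 4.44 to 5.47 RPKM in batch A, at most 0.205 in batch B with a median of 0, and at most 1.05 in batch C. Hsal_01431 had 15.2 RPKM in gamergate 1, 7.71 in gamergate 2, 9.16 in transition worker 1 and 6.27 in transition worker 2, and at most 1.81 RPKM elsewhere. The other members were Hsal_00930, Hsal_11987, Hsal_06514, Hsal_00125, Hsal_04183, Hsal_00288 and Hsal_14487, and 6 of the 9 were few-read genes. Over 33 ants the median Pearson correlation between members on the log2(RPKM + 1) scale was 0.834, and over the 29 ants without batch A it was 0.139. Of the 904 genes that met the limits, 14 peaked in all 4 ants.

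The second set was chosen on peaks in 4 workers. It is the 8 genes that peaked in at least 2 of stable worker 4, transition workers 6 and 7, all of batch B, and transition worker 10 of batch C. Hsal_11600 had 29.1 RPKM in stable worker 4 (339 reads), 9.48 in transition worker 10, 4.34 in transition worker 7 and 2.02 in transition worker 6. The other 29 ants were at or under 0.723 RPKM, and the highest gamergate was at 0.244 RPKM. Hsal_00924 followed with 23.6 RPKM in stable worker 4, 7.78 in transition worker 10 and 3.30 in transition worker 7, and at most 0.799 in any other ant. Hsal_10448 was at 8.74 RPKM in stable worker 4, 5.78 in transition worker 10, 4.26 in transition worker 6 and 2.35 in transition worker 7, and at most 0.438 in gamergates. Hsal_07499 was highest in transition worker 6, with 7.81 RPKM, followed by 6.54 in stable worker 4 and 5.61 in transition worker 10. Hsal_03008, Hsal_10509 and Hsal_17192, of 1761 to 2206 bases, completed the long genes of the set. The eighth, Hsal_18084, had 242 bases and 11 reads at most, and it was the only one with peaks in gamergates, at 5.83 RPKM in gamergate 7 and 2.59 in gamergate 12.

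The summed level of this second set was 88.5 RPKM in stable worker 4, 42.9 in transition worker 10, 28 in transition worker 6 and 26.9 in transition worker 7. It was 0.718 to 4.61 RPKM in the other 17 workers and 0.592 to 8.47 RPKM in the 12 gamergates. The genes were chosen on peaks in these 4 ants, so their distance from the other workers and from gamergates is not read as a result. The median correlation between members was 0.719 over 33 ants and 0.074 over the 29 ants without these 4. Ants differed in which gene led: stable worker 4 was highest for Hsal_11600 and Hsal_00924, while transition worker 6 was highest for Hsal_10509 and Hsal_07499.

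The third set is 3 genes that peaked in transition worker 9 and stable worker 5. Hsal_04753 had 157 RPKM in transition worker 9, 6.87 in stable worker 5 and 4.81 in stable worker 7, and at most 1.54 elsewhere. Hsal_04752 had 79.3 RPKM in transition worker 9 (960 reads), 3.55 in stable worker 5 and 2.83 in transition worker 10, and at most 0.732 elsewhere. Hsal_11845 had 39.7 RPKM in transition worker 9 (622 reads), 12.4 in stable worker 5 and 2.19 in stable worker 7, and at most 1.67 elsewhere. The summed level was 276 RPKM in transition worker 9 and 22.8 in stable worker 5, and at most 7.73 in the other 31 ants. The 3 pairs had r of 0.910 to 0.961 over 33 ants and of 0.632 to 0.681 over the 31 ants without them. Those 31 ants still include 3 peaks of these genes, in stable worker 7 and transition worker 10, so the second range describes values that also chose the genes. No gamergate had a peak in any of the 3, and the gamergate sum did not exceed 3.51 RPKM. Transition worker 9 also had the highest share of reads in other genes under 300 bases, at 1.38%. It had 1589681 reads in rows of rRNA, tRNA, snRNA and miRNA, beside 6289003 in genes, and the next highest ant was stable worker 7 with 437080. Stable worker 5 had 78761 such reads. The part of these values in the result was not tested.

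**Figure D4:**
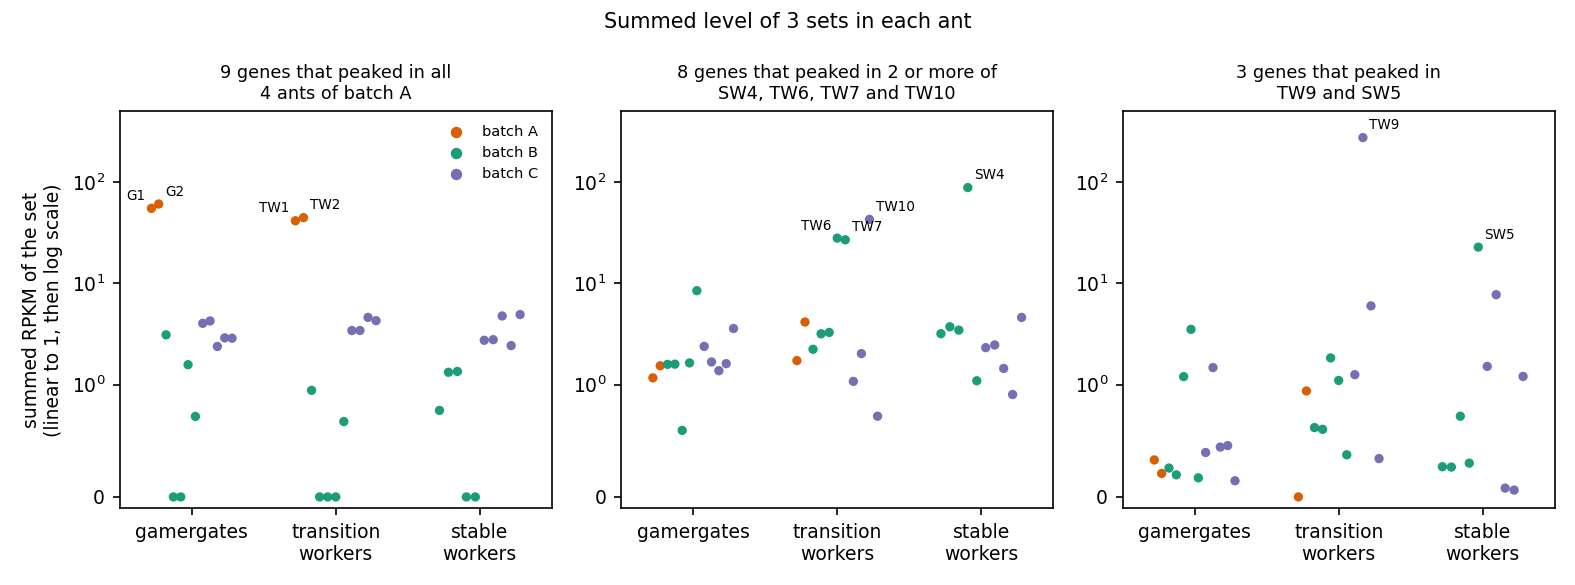
Each point is 1 ant, coloured by batch, and the y axis is the summed RPKM of a set, linear to 1 and on a log scale above. The 9-gene set is high in the 4 ants of batch A (41.6 to 60.9 RPKM), the 8-gene set in stable worker 4 and transition workers 6, 7 and 10 (26.9 to 88.5 RPKM), and the 3-gene set in transition worker 9 (276 RPKM) and stable worker 5 (22.8 RPKM).

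Transition worker 10 held 24 peaks, the most of any ant outside batch A, and 18 of them were in genes with 10 or more reads, the highest number of any ant. It held the maximum of 13 genes, among them Hsal_16441 and Hsal_05416. Hsal_05416 had a single peak of 14.8 RPKM from 89 reads, with 75.4% of all its recovered reads in this ant and at most 0.738 RPKM in any other. It had 118 recovered reads over all ants, but a mean of 24.0 normalized reads (baseMean) in the authors' deposited table. These values were 141 and 1012 for Hsal_11247, and 2800 and 11.3 for Hsal_04753, which went the other way. For these genes the sources differ, so low levels outside the peak ants rest on the deposited RPKM alone. Why they differ was not tested. The library of transition worker 10 also had 4952620 reads, fewer than all but 3 others, and 0.798% of its reads in other genes under 300 bases. The part of these values in its peaks was not tested. Without transition worker 10 the mean of the transition workers was 11.3 ± 11 peaks (SD, n = 10).

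Outside batch A, gamergates 8 and 10 shared peaks in 2 genes. One of them, Hsal_05515, of 1553 bases, had 9.35 RPKM in gamergate 10, 7.45 in gamergate 8 and 5.51 in gamergate 6, from 126, 121 and 47 reads, and 2.08 RPKM in transition worker 10. Gamergates ran from 0.137 to 9.35 RPKM in this gene with a median of 0.542, and stable workers from 0 to 0.481 with a median of 0.258, so the groups overlapped. In the authors' deposited table its log2 fold change of transition workers over gamergates was -1.72 with an adjusted p of 0.183. Hsal_16119 peaked in gamergates 2 and 3 at 9.33 and 2.42 RPKM and in stable worker 6 at 4.60 RPKM.

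Some genes with consecutive identifiers shared their maximum. There were 4 such pairs among the 100 genes, and in 3 of them both genes had their maximum in the same ant. Hsal_04752 and Hsal_04753 both had it in transition worker 9 (r = 0.961 over 33 ants), Hsal_10509 and Hsal_10510 in transition worker 6 (r = 0.811), and Hsal_06091 and Hsal_06092 in gamergate 12 (r = 0.705). Hsal_15582 and Hsal_15583 had it in different ants (r = 0.251). The maxima, and the high values that enter r, are also the values that chose the genes. How often other genes with consecutive identifiers share a maximum was not worked out, so no link is read from these pairs. Whether consecutive identifiers lie side by side in the genome, or whether such genes share reads, was not tested.

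The lower limit of the list fell between genes of equal value, and the last place went to 1 of 2 tied genes by the order of their identifiers. The last genes inside were Hsal_06092 at 5.13 RPKM and Hsal_03106 and Hsal_00985, both at 5.05 RPKM from 2 and 4 reads. Hsal_00985 and Hsal_05395, the first gene outside, had the same value in transition worker 2, from 4 reads over 149 bases. The next outside were Hsal_04759 at 5.05 and Hsal_17623 at 5.03 RPKM, from 5 and 7 reads.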

How the data were processed

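Brain RNA was sequenced in 47 runs of 33 ants. STAR 2.5.0b and DESeq2 are named in the submitters' processing notes. Genome build, annotation and read counter were not given in the sources used here. One RPKM value per gene and ant was deposited by the authors. For 14 ants with a second run, it is not given which run the column holds. A second table of the authors, per the file headers, holds for each gene baseMean (a mean signal of normalized reads), the log2 fold change of transition workers over gamergates, and the p-value before and after adjustment. Both tables hold 0 further columns of single samples.

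Reads and gene lengths were recovered from the RPKM steps as the smallest whole numbers that fit, and 100% of 405794 values above 0 came out whole within 0.01 reads. A gene whose reads share a common factor would thus be taken as shorter, with fewer reads. The recovery was tested on simulated data. The 11234 rows that averaged 0.5 RPKM or more were tested on log2(RPKM + 1) with limma 3.58.1 in R 4.3.3, with 3 groups and the batch in 1 model, a variance trend, two-sided tests and Benjamini-Hochberg adjustment over all rows. A fold on this scale understates the change of low genes. Read intervals are exact Poisson intervals at 95%.

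The 100 genes and all lists were chosen with earlier results of these data known. Genes were named if among the 20 with the highest maximum, among the 4 highest of an ant with at least 5 maxima, among up to 10 called, with 4 peaks in 1 group, or at the limit of the list. Members of the 3 sets and a few others were named after their values were seen. Alternatives were other pseudocounts, filters, limits and member choices, limma-voom on recovered reads, a replicate block, and ants left out.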

Additional observations from a re-analysis of the deposited data

Results flagged for a closer look

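In the 10 stable workers, 1 ant stood far from the other 9 in 14 of 20 genes looked at, by a gap to its nearest neighbour above Dixon's 95% limit for 10 samples. Chance flags about 1 group in 20, but genes high in few ants were chosen for just this pattern, so the count supports nothing. Stable worker 4 was the high ant in Hsal_11600 (29.1 RPKM), Hsal_00924 (23.6 RPKM), Hsal_03008 (10.9 RPKM), Hsal_10448 (8.74 RPKM) and Hsal_10509 (2.55 RPKM). Stable worker 5 was the high ant in Hsal_11845 (12.4 RPKM) and Hsal_04752 (3.55 RPKM). Stable worker 6 stood apart in Hsal_16119 (4.60 RPKM) and Hsal_07637 (2.47 RPKM), and stable worker 7 in Hsal_15582 (3.47 RPKM) and Hsal_16463 (2.24 RPKM). Single genes stood apart in stable worker 8 (Hsal_02098, 7.30 RPKM), stable worker 3 (Hsal_05765, 2.05 RPKM from 1 read) and stable worker 9 (Hsal_00985, 2.03 RPKM). Hsal_07637, Hsal_15582, Hsal_16463 and Hsal_00985 are few-read genes too, with 8, 6, 7 and 4 reads at their maxima over all ants. Groups of more than 10 ants were not looked at in this way.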

How the results depend on the processing

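No gene of the list was called between groups under any alternative run, but genes chosen as high in at most 4 ants were unlikely to be called. The calls between batches fell under a replicate block, from 10 to 0 for batch C against B and from 26 to 13 for batch A against B. Over all 11234 rows, calls fell from 3987 to 2 and from 2481 to 107. Most replicate numbers lie within a single batch, so the block leaves little of the batch difference to test. Nothing about the batch calls is read from this fall. The replicate numbers were not taken as pairs: 13 of 31 same-numbered pairs correlated above 0.1, and 4 of 32 ants correlated best with their own number. These correlations cannot show whether ants of equal number shared a nest or handling, which the labels do not say. Other alternatives kept both batch counts within 1.5 times, but for C against B a pseudocount of 0.1 called 13 higher and 2 lower and limma-voom 4 higher and 3 lower.

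The number of genes with 1 peak, 17 of 100, became 58 with peaks set at 5 RPKM or more, which changes the peak limit and the genes together (76 of 100 stayed), 28 with a median under 0.1 RPKM, 39 for the 100 genes with the most reads in 1 ant, and 59.96 per 100 over all 904 genes. The highest number of peaks in 1 ant, 32 in transition worker 1, was 21 (transition worker 10) for the genes with the most reads, 16 (transition worker 10) without peaks under 10 reads, and 19.47 per 100 genes over all 904. The highest number of maxima in 1 ant, 16 in transition worker 1, was 10 (transition worker 10) for the genes with the most reads. Of the 100 genes, 35 were also among the 100 with the most reads in 1 ant. The causes were not tested. Mean peaks per ant moved by less than the large SDs, but ran from 2.583 to 7.417 in gamergates, 5.455 to 14.55 in transition workers and 2.0 to 6.4 in stable workers over the alternatives, per 100 genes. The lowest came from leaving out peaks under 10 reads. Transition workers were highest throughout, while stable workers exceeded gamergates with genes of 1000 bases or more (6.4 against 3.667) and without batch A (4.3 against 3.4).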
